A study of Saccharomyces cerevisiae with 40 samples.

Results

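The mitochondrial ribosomal protein genes of budding yeast were followed through the response to arsenite (AsIII, given as NaAsO2). Members were the genes whose symbol was MRPL, MRPS or RSM followed by a number, which gave 54 genes among 5598 on the Agilent arrays and 53 among 5540 on the cDNA arrays, with MRPL15 lacking on the cDNA arrays. Of the 54, 34 MRPL genes encode proteins of the large subunit and 20 MRPS and RSM genes encode proteins of the small subunit. The rule used names only and no measured value.

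The mitochondrial ribosome translates the few mRNAs of the mitochondrial genome, most of which encode core subunits of the respiratory chain and of ATP synthase. All but one of its proteins are encoded in the nucleus, made on cytosolic ribosomes and imported. In yeast grown on glucose their mRNAs are held down by Puf3, a protein that binds the 3′ ends of many such mRNAs and speeds their decay, whereas the respiratory chain genes depend on the Hap2/3/4/5 activator, whose limiting subunit is Hap4. Some members have counterparts in bacterial ribosomes, and others were added during the evolution of mitochondria.

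Two-colour arrays gave the log2 ratio of treated over untreated RNA or of null strain over parent, so 1 stands for a 2-fold higher level. All strains had the BY4741 background (MATa with deletions of his3, leu2, met15 and ura3) and grew in synthetic complete medium. On cDNA arrays, poly(A) RNA of BY4741 treated with 100 µM AsIII for 30 min, 2 h or 4 h (1 pair of treated and untreated cultures each, on 4 arrays) or with 1 mM AsIII for 30 min (2 culture pairs, 8 arrays) was set against untreated cells split from the same culture. On Agilent arrays, total RNA was compared after 100 µM AsIII for 2 h in the yap1, cad1, rpn4 and arr1 null strains (2 arrays each, dyes exchanged) and in the parent (4 arrays), and each untreated null strain was compared with the untreated parent (2 arrays each). Each null strain was a single deletion strain of the collection. Yap1, Cad1 and Arr1 are transcription factors of the yeast AP-1 family, and Rpn4 activates the proteasome genes.

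The arrays differed in how firmly they fixed a value. The median over all genes lay between -0.06 and 0.07 on the cDNA arrays and between -0.11 and 0.00 on the Agilent arrays. In the untreated null strains over the parent, YAP1 read -4.05 and -4.66, CAD1 -3.94 and -5.57, RPN4 -3.62 and -4.46, and ARR1 -0.95 and -3.60, so each deleted gene read lower in its null strain, and ARR1 differed most between its 2 arrays. On the treated over untreated arrays of its own null strain CAD1 read 0.86 and 0.75, where both RNAs lack the gene, while YAP1, RPN4 and ARR1 read between 0.03 and 0.16. Dye-exchanged arrays of treated null strains correlated at 0.82 to 0.93 over all genes, but those of the untreated yap1 null correlated at -0.48 and those of the untreated cad1 null at -0.14. All p-values below come from limma fits over all genes with Benjamini-Hochberg adjustment, and a gene is said to have risen or fallen where its adjusted p was under 0.05. By the study's methods the 2 Agilent arrays of a null strain are 1 pair of RNA samples hybridised with the dyes exchanged, so a null strain counts as 1 replicate. Whether the 4 parent arrays hold RNA of separate cultures is not stated, so the Agilent p-values measure only the spread between the parent's array pairs, which may be technical. In these bulk samples a change in RNA per cell and a change in the share of cells that carry it cannot be told apart.

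At 1 mM AsIII for 30 min the mitochondrial ribosomal protein genes lay below untreated cells as a group. Their median log2 ratio was -0.40, against 0.02 over all genes, and 44 of 53 lay below 0. Of the 53 members, 7 fell (13.2%), against 7.09% of all genes, and 1 rose (1.89%), against 9.69% of all genes. Of the 7 that fell, 5 were among the 20 small subunit genes and 2 among the 33 large subunit genes. MRPS12, whose product is the counterpart of a bacterial protein of the decoding centre, read -1.48, -1.75, -1.25 and -1.62 in the first culture pair and -0.38, -0.83, -1.18 and -1.16 in the second. It lay below 0 on all 8 arrays and fell by 1.21 (SE 0.24, adjusted p = 0.032, limma), and the second culture pair gave smaller values than the first. RSM7, the counterpart of a bacterial protein in the head of the small subunit, read between -1.70 and -1.33 in the first pair and between -0.98 and -0.65 in the second, and fell by 1.18 (SE 0.245, adjusted p = 0.034, limma). RSM25, which encodes a mitochondria-specific small subunit protein, fell by 1.15 (SE 0.20, adjusted p = 0.023, limma). The other members that fell were MRPS35, MRPL6, MRPL8 and MRPS9, with log2 ratios of -0.97, -0.97, -0.91 and -0.86. RSM18, a small subunit gene, was the member that rose. It read 1.18, 1.20, 1.37 and 0.89 in the first culture pair and 0.91, 1.07, 0.47 and 0.64 in the second, all 8 above 0, with a fitted ratio of 0.97 (SE 0.215, adjusted p = 0.040, limma).

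The members' medians at 1 mM lay below 0 in both cultures and with both dyes, but the size of the shift moved with the dye. The members' median was -0.35 in the first culture pair, with 37 of 53 below 0, and -0.41 in the second, with 46 of 53 below 0. The 4 arrays that carried treated RNA in Cy3 had medians of -0.52, -0.48, -0.50 and -0.64. The 4 with the dyes exchanged had medians of -0.11, -0.05, -0.29 and -0.29. On the first 2 of these, from the first culture pair, 25 and 23 of 53 members lay above 0, near an even split. Counting each array as a replicate called 31 members lower and 3 higher, against 1537 lower and 1442 higher of all 5540 genes. Under a rule of unadjusted p under 0.001 with at least a 2-fold change no member passed. The count over all genes under that rule is not given here, so this does not set the members apart.

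**Figure D1:**
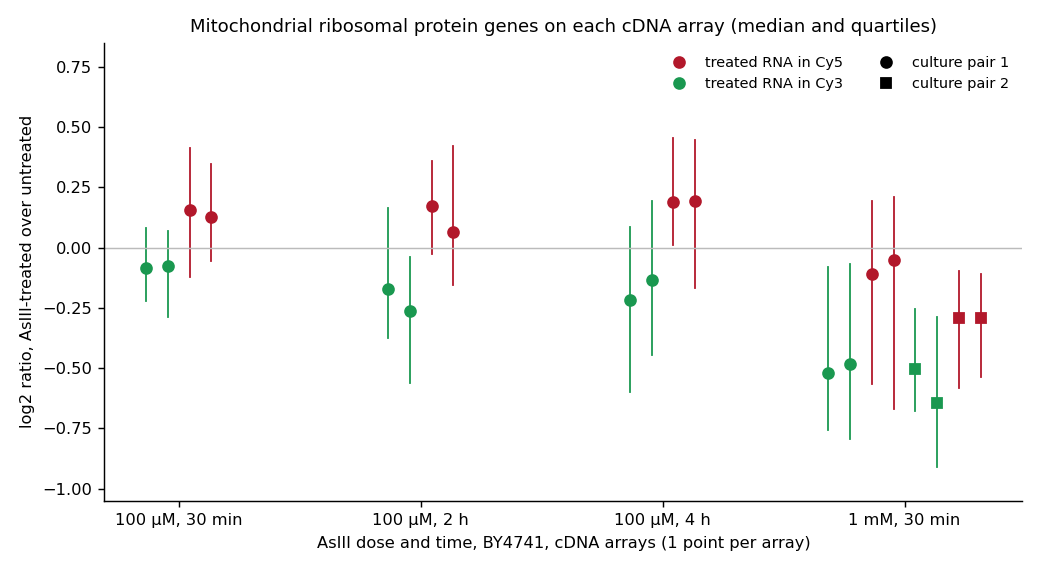
Median (points) and quartiles (lines) of the log2 ratio, AsIII-treated over untreated, over the 53 members on each cDNA array, by dose and time, coloured by the dye of the treated RNA. All 8 arrays at 1 mM have medians below 0, from -0.64 to -0.05, while at 100 µM the medians with treated RNA in Cy3 lie below 0 and those with treated RNA in Cy5 above 0.

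At 100 µM no member passed on the cDNA arrays at any time. The members' median log2 ratio was 0.05 at 30 min, -0.02 at 2 h and -0.02 at 4 h, against -0.03, -0.06 and -0.04 over all genes. At 30 min 0.0% of all genes passed in either direction, at 2 h 5.94% and at 4 h 0.0542%, and 0 of 53 members passed in limma at each time, with 1 member at an unadjusted p under 0.05 each time. At every time the arrays fell apart by dye. At 2 h, for example, the members' medians were -0.17 and -0.26 on the arrays that carried treated RNA in Cy3 and 0.17 and 0.07 after dye exchange, so the sign of the group's median at 100 µM followed the dye.

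The most displaced members at each time did not pass. At 30 min MRPL25 (0.73) and MRPS16 (0.59) were highest. MRPL25 read 1.49, 0.22, 0.48 and 0.72, and MRPS16 read 1.48, 0.10, 0.28 and 0.50. Array 1 stood apart for more members than these, with 8 of 53 above 1 on it, up to 1.60 for RSM19, and 0 above 1 on each of the other 3 arrays. With array 1 left out, an alternative chosen after its values were seen, MRPL25 had 0.41 and MRPS16 0.25, the members' median was 0.03, and again no member passed. RSM26 (-0.61) and MRPL7 (-0.29) were lowest, and RSM26 read -2.20 on 1 array against -0.16, 0.00 and -0.07 on the others. At 2 h MRPL19, the counterpart of a bacterial protein of the factor-binding stalk, was highest at 0.57, 0.77, 0.82 and 0.81, with a fitted 0.74 (adjusted p = 0.22, limma), and MRPL17 followed at 0.68. RSM25 was lowest at -0.95, -0.82, -0.81 and -0.58 (fitted -0.79, adjusted p = 0.16, limma), and MRPL32 followed at -0.58. The 4 arrays gave MRPL19 and RSM25 the same sign, but with a single culture pair their spread was borrowed from the 1 mM cultures. At 4 h MRPL40 read 0.83, 1.04, 0.95 and 0.69 (fitted 0.88, adjusted p = 0.33, limma) and MRPL8 0.64, against -0.56 for RSM18 and -0.51 for RSM7.

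Differences between doses and times followed. Between 30 min at 1 mM and 30 min at 100 µM the members' median difference was -0.47, against 0.05 over all genes, with 45 of 53 members lower at 1 mM. In limma 0 of 53 passed, as did 0.0% of all genes, and 8 members had an unadjusted p under 0.05. RSM18 (1.19) and MRPL17 (1.09) were highest, and MRPS16 (-1.22) and MRPL25 (-1.20) were lowest. Without array 1 at 100 µM the median difference was -0.44, and MRPS16 and MRPL25 had -0.88 and -0.88. From 30 min to 2 h at 100 µM the median difference was -0.16 (0 of 53 passed, 0.0% of all genes, 1 at an unadjusted p under 0.05), with MRPL17 at 0.88, RSM18 at 0.84, MRPL25 at -1.04 and MRPS16 at -0.98. Without array 1 at 30 min these were -0.04 for the median, 0.92, 0.79, -0.72 and -0.64. From 2 h to 4 h it was 0.00 (0 of 53, 0.0% of all genes, 2 at an unadjusted p under 0.05), with RSM25 at 1.22, MRPL8 at 0.89, RSM18 at -1.17 and MRPS18 at -0.92. None of these 12 values passed. Counting each array as a replicate called 21, 5 and 9 members in these 3 differences. Of all 5540 genes it called 799 higher and 737 lower in the first. In the second it called 843 and 634, and in the third 995 and 1074.

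On the Agilent arrays the parent treated with 100 µM AsIII for 2 h had responses in both directions. Of the 54 members, 22 rose (40.7%), against 34.7% of all genes, and 9 fell (16.7%), against 42.7% of all genes. The members' median was 0.17, against -0.10 over all genes, and the 2 pairs of arrays gave medians of 0.19 and 0.07. In the large subunit 14 of 34 rose and 5 fell, and in the small subunit 8 of 20 rose and 4 fell. The SE was 0.12 for each gene in the parent and 0.17 in each null strain, since the fit gave all genes 1 common spread that rested on the difference between the 2 pairs of parent arrays. That spread was taken as known, so very small Agilent p-values carry no allowance for its error.

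A few members far outran the rest. MRPL17, which encodes a mitochondria-specific protein of the large subunit, read 3.17, 2.90, 3.43 and 3.23 in the treated parent, a 9.07-fold rise. MRPL49, the counterpart of bacterial L21, read 2.79, 2.61, 2.64 and 2.28 (5.98-fold). MRPL40, whose product lies at the exit of the peptide tunnel, read 1.73, 2.10, 1.58 and 1.84 (3.51-fold). RSM18 read 1.71, 1.37, 2.23 and 1.67. The 4 genes were above 1.3 on each of the 4 arrays, while the upper quartile of the members was 0.50. At the other end MRPS12 read -0.89, -1.15, -0.97 and -0.55, RSM7 -0.90, -0.84, -0.88 and -0.90, and MRPL20, a gene of a large subunit protein with no bacterial counterpart, -1.02, -1.08, -0.70 and -0.68. They fell by 0.89, 0.88 and 0.87. RSM25 fell by 0.81. MRPS12, RSM7 and RSM25 were also the 3 members that fell furthest at 1 mM on the cDNA arrays, which used other cultures, another dose and another kind of array. At the parent's own dose and time, however, the cDNA arrays put MRPS12 between 0.066 and 0.155 and RSM7 between 0.109 and 0.325. Only RSM25 of these 3 was below 0 there, as given above.

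**Figure D2:**
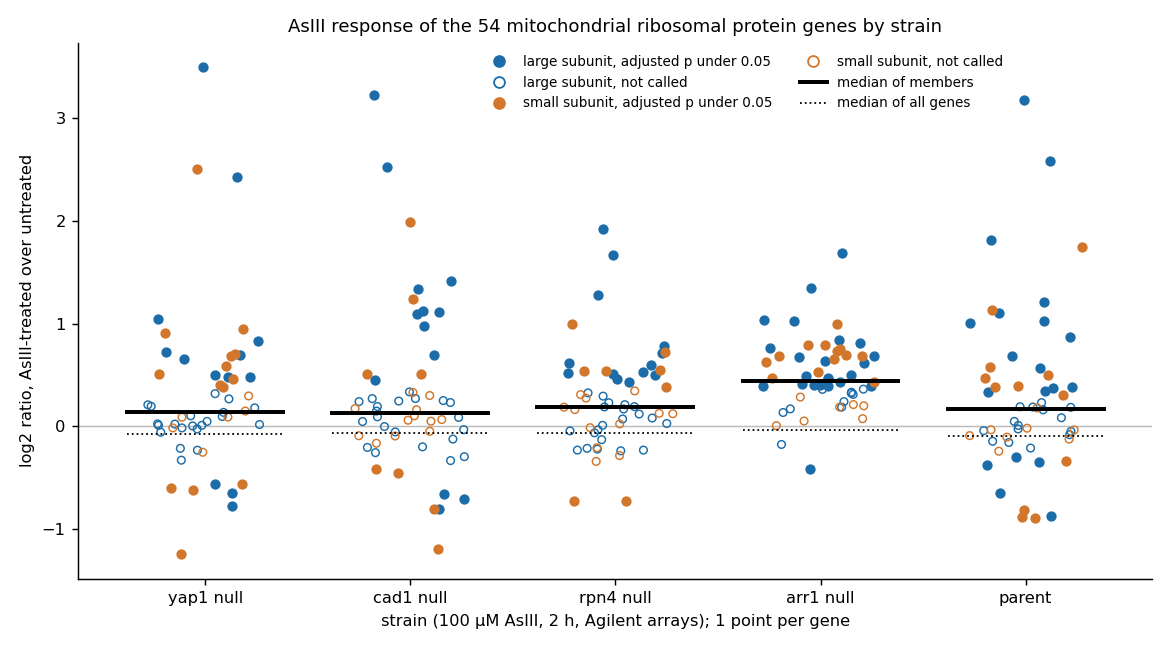
Log2 ratio, AsIII-treated over untreated, of each of the 54 members after 100 µM AsIII for 2 h in the 4 null strains and in the parent on Agilent arrays (mean of 2 arrays per null strain and 4 in the parent). Filled points passed the test, thick lines are members' medians and dotted lines medians of all genes. In the arr1 null 52 of 54 members lie above 0, and the highest points of the parent come down.

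Of the 54 members 35 had 2 probes, whose ratios in the parent differed by a median of 0.05 and at most by 0.40, for MRPS17, where the 2 probes had opposite signs. In the null strains the median difference was 0.04 to 0.05, and the largest were 0.63 for MRPL24 in the cad1 null, whose probes read -0.17 and 0.47, 0.42 for RSM25 in the cad1 null and 0.36 for MRPL40 in the yap1 null. The cDNA arrays gave the same genes much smaller ratios at the same dose and time. MRPL17 had 0.68 on them and MRPL49 0.19, MRPL40 0.11 and RSM18 0.62. Over the 53 members on both kinds of array the Pearson correlation between the 2 h values was 0.44, 31 had the same sign, and over 5513 genes the correlation was 0.38. The cytosolic ribosomal protein genes had a median of 0.50 on the Agilent arrays of the treated parent and of -1.75 on the cDNA arrays at 2 h. RNA preparation (poly(A) or total), array design, culture and processing all differed between the 2 sets and cannot be told apart.

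Other groups of mitochondrial genes were described beside the members, by their counts and medians alone. Of 21 further mitoribosomal protein genes with other symbols, such as MRP, IMG or SWS2, 9 rose and 5 fell in the treated parent, with a median of 0.10. MRP2 (3.50) and MRP17 (2.09) rose with the highest members. Of 12 mitochondrial translation factors 1 rose and 7 fell, among them the elongation factor TUF1 (-0.95) and the release factor MRF1 (-0.87). Of 13 mitochondrial aminoacyl-tRNA synthetases 4 rose and 1 fell. Of 33 nuclear genes of the respiratory chain and ATP synthase 3 rose and 27 fell, with a median of -0.85, and HAP4 read -2.47, -2.84, -2.36 and -2.66. PUF3 read 0.20, -0.33, -0.05 and -0.05 and did not pass. Genes of the mitochondrial genome were not analysed here.

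In the yap1 null most members did not pass for a difference from the parent, and 6 did. Of the 54 members, 20 rose (37.0%), against 30.5% of all genes, and 7 fell (13.0%), against 36.0% of all genes, with a median of 0.14. The difference between the strains, null minus parent, passed upwards for 3 members (5.56%), against 5.39% of all genes, and downwards for 3 (5.56%), against 7.36% of all genes. MRPL40 read -0.74 and -0.37 in the yap1 null, against 1.73, 2.10, 1.58 and 1.84 in the parent, a difference of -2.37 (SE 0.21, adjusted p = 5.9e-27, limma). MRPL40 was the only member that fell in the yap1 null and rose in the parent. MRPL15, a large subunit gene, read 0.15 and -0.12 in the yap1 null, against 1.27, 1.02, 1.35 and 1.22 in the parent (difference -1.20, adjusted p = 4.2e-07, limma). MRPL22, whose product lines the peptide tunnel, read -0.35 and 0.24 in the yap1 null, against 0.71, 1.14, 0.79 and 1.40 in the parent (difference -1.06, adjusted p = 1.3e-05, limma). The arrays of the 2 strains did not overlap for these 3 genes. RSM18 (2.72 and 2.30 in the null), MRPL7 (0.74 and 1.35) and MRPS9 (0.40 and 0.78) were higher than in the parent, by 0.76, 0.70 and 0.68, though the lowest null array of MRPL7 lay only just above the highest parent array of 0.73. With each array as a replicate and the array number as a block, 5 members were higher and 5 lower, against 712 and 530 of all genes. With Cy5 arrays alone the 3 lower members passed and none higher, and with Cy3 arrays alone 2 lower members passed and none higher. Among all genes 260 were lower and 91 higher with Cy5 alone, and 210 and 45 with Cy3 alone.

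The 3 members that passed as lower in the yap1 null than in the parent were looked at beside their chromosomal neighbours, which were chosen after their values were seen. MRPL40 (YPL173W) lies next to COX10 (YPL172C), which is read towards it, and beyond COX10 lies OYE3, the gene of an NADPH dehydrogenase. COX10 makes a precursor of the haem A of cytochrome c oxidase. COX10 read 0.62 and 0.42 in the yap1 null, against 4.99, 4.65, 5.32 and 4.85 in the parent, and OYE3 read 2.14 and 2.77 in the yap1 null, against 6.36, 6.64, 6.52 and 6.64 in the parent, where 6.64 is the 100-fold limit of the file. MRPL22 (YNL177C) lies next to TDA7 (YNL176C), read in the same direction, which had 0.87 and 0.61 in the yap1 null, against 3.17, 2.77, 3.28 and 2.90 in the parent. MRPL15 (YLR312W-A) lies next to ATG39 (YLR312C), read away from it, which had -0.20 and -0.17 in the yap1 null, against 0.73, 0.36, 0.75 and 0.72 in the parent. In the yap1 null these 4 neighbours read lower than in the parent, but they were picked with those values known, so this was no test. Values of the genes on the other sides of the 3 members are not given here. In the rpn4 null the neighbours went different ways. There MRPL40 read -0.27 and 0.19, and COX10 read 3.38 and 3.01, also below its parent values. OYE3 read 6.53 and 6.64, at or near the limit of the file in both strains, where a difference may not show. ATG39 read 1.90 and 1.80 in the rpn4 null, above the parent, while MRPL15 read 1.33 and 1.23. NRD1, next to MRPL17, read 2.32 and 2.04 in the rpn4 null, against 1.74, 1.24, 1.94 and 1.41 in the parent, while MRPL17 was lower in that null strain than in the parent. Whether the probes of these members took up RNA read through from a neighbour was not tested. On the cDNA arrays at 2 h COX10 read 2.98, 3.04, 2.85 and 3.12, and MRPL40 -0.21, -0.24, 0.30 and 0.57.

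In the cad1 null no member passed for a difference from the parent. Of the 54, 14 rose (25.9%), against 31.9% of all genes, and 7 fell (13.0%), against 36.0% of all genes, with a median of 0.13. MRPL17 (3.06 and 3.38), MRPL49 (2.35 and 2.70) and RSM18 (2.14 and 1.84) were again highest, and RSM7 (-1.33 and -1.06), MRPL20 (-0.80 and -0.82) and MRPS12 (-1.01 and -0.59) lowest. For cad1 null minus parent 0 of 54 passed in limma, against 4.23% of all genes in either direction, with 2 members at an unadjusted p under 0.05. The extremes of that difference, which did not pass, were RSM25 (0.36), MRPL8 (0.35), MRPL13 (-0.44) and MRPS16 (-0.59, adjusted p = 0.089, limma). MRPS16 read -0.20 and 0.02 in the cad1 null, against 0.98, 0.94, -0.16 and 0.25 in the parent, whose 2 pairs of arrays differed. With the array number as a block 3 members were lower in the cad1 null, against 199 lower and 183 higher of all genes.

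In the rpn4 null the highest members of the parent read lower, but they were picked by high parent values. All genes also spread less in the rpn4 null, with an SD of 0.79, against 0.98 in the parent. The lower values of these members therefore do not set the members apart. Of the 54, 19 rose (35.2%), against 24.4% of all genes, and 2 fell (3.70%), against 29.9% of all genes, with a median of 0.19. Null minus parent was higher for 8 members (14.8%), against 21.3% of all genes, and lower for 6 (11.1%), against 17.7% of all genes. MRPL40 read -0.27 and 0.19 in the rpn4 null, against 1.73, 2.10, 1.58 and 1.84 in the parent (difference -1.86, SE 0.21, adjusted p = 2.3e-16, limma). MRPL17 read 1.69 and 1.65 in the null, against 3.17, 2.90, 3.43 and 3.23 in the parent (difference -1.51, adjusted p = 4.1e-11, limma), so it still rose in the null, 3.18-fold. RSM27, a gene of a mitochondria-specific small subunit protein, read 0.17 and 0.09, against 1.08, 1.30, 1.26 and 0.89 in the parent (difference -1.01). MRPS17 (0.76 and 0.70 in the null, against -0.04, 0.24, 0.12 and -0.40 in the parent), RSM10 (0.29 and 0.47, against -0.32, -0.52, -0.28 and -0.22) and MRPL20 (-0.35 and -0.13, against -1.02, -1.08, -0.70 and -0.68) were higher, by 0.74, 0.72 and 0.63. RSM7 and RSM25 were the 2 members that fell in the rpn4 null, by 0.73 and 0.72. For 11 of the 14 members the arrays of the 2 strains did not overlap, and with Cy3 arrays alone 4 of the 14 passed. The 14 were picked by a test on the same arrays, and no count of overlap over all genes is given here. Cy3 arrays alone called 546 of all genes higher and 459 lower.

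**Figure D3:**
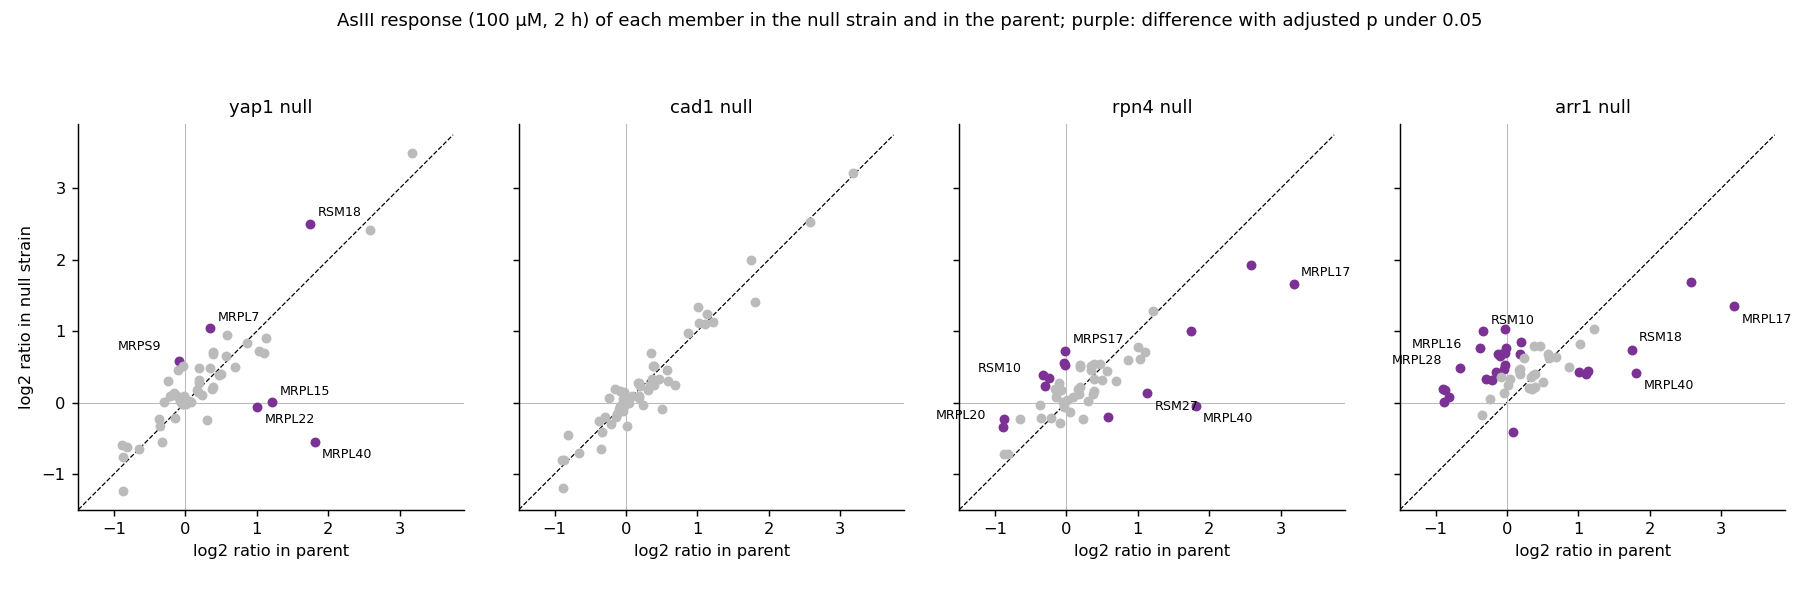
Log2 ratio, treated over untreated, of each member in a null strain (vertical axis) against the parent (horizontal axis) after 100 µM AsIII for 2 h, one panel per null strain. The dashed line marks equal responses, purple points are members whose difference passed, and the labels name the 3 highest and 3 lowest of these. The cad1 null has no purple point, and in the arr1 null 29 members are purple, 21 above the line.

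The arr1 null had the most members risen among the 5 strains. Of the 54, 36 rose (66.7%), against 23.2% of all genes, and 1 fell (1.85%), against 26.9% of all genes. The median was 0.45, against -0.04 over all genes, 52 of 54 lay above 0, and the array medians were 0.49 and 0.48 with the 2 dyes. In the large subunit 23 of 34 rose and 1 fell, and in the small subunit 13 of 20 rose. MRPL49 (1.79 and 1.58), MRPL17 (1.39 and 1.30) and MRPL15 (1.05 and 1.02) were highest, and MRPL23 (-0.38 and -0.44), the counterpart of a bacterial large subunit protein, was the member that fell. The members also spread less in the arr1 null, with an SD of 0.35 over the 54 log2 ratios, against 0.78 in the parent, while over all genes the SD was 0.72 in the arr1 null and 0.98 in the parent. With Cy3 arrays alone 21 members rose and none fell, against 987 risen and 1064 fallen of all genes.

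The difference of arr1 null minus parent passed upwards for 21 members (38.9%), against 28.6% of all genes, and downwards for 8 (14.8%), against 25.5% of all genes. Its median was 0.29, against 0.04 over all genes. RSM10, the counterpart of bacterial S10, read 0.98 and 1.01 in the arr1 null, against -0.32, -0.52, -0.28 and -0.22 in the parent (difference 1.33, SE 0.21, adjusted p = 2.3e-09, limma). MRPL28, a gene of a mitochondria-specific large subunit protein, read 0.50 and 0.48, against -0.88, -0.63, -0.66 and -0.44 in the parent (difference 1.14). MRPL16, the counterpart of bacterial L16, read 0.83 and 0.70, against -0.24, -0.62, -0.26 and -0.38 in the parent (difference 1.14). All 3 fell in the parent and rose in the arr1 null. Of the 9 members that fell in the parent, 8 lay above 0 in the arr1 null, against 1 in the yap1 null, 0 in the cad1 null and 2 in the rpn4 null. These 9 were picked by low parent values, and no such share is given for the 2393 of all genes that fell there. All genes also spread less in the arr1 null, as given above, so these counts do not set the members apart. Downwards, MRPL17 differed by -1.83, MRPL40 (0.35 and 0.48 in the arr1 null) by -1.40 and RSM18 (0.96 and 0.50) by -1.02, with adjusted p of 1.0e-16, 3.9e-10 and 6.8e-06 (limma). For 27 of the 29 members the arrays of the 2 strains did not overlap. The 29 were picked by a test on the same arrays, and no such count over all genes is given here. All 4 comparisons of a null strain with the parent used the same 4 parent arrays, so MRPL40, low in the yap1, rpn4 and arr1 nulls, was set 3 times against the same values.

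**Figure D4:**
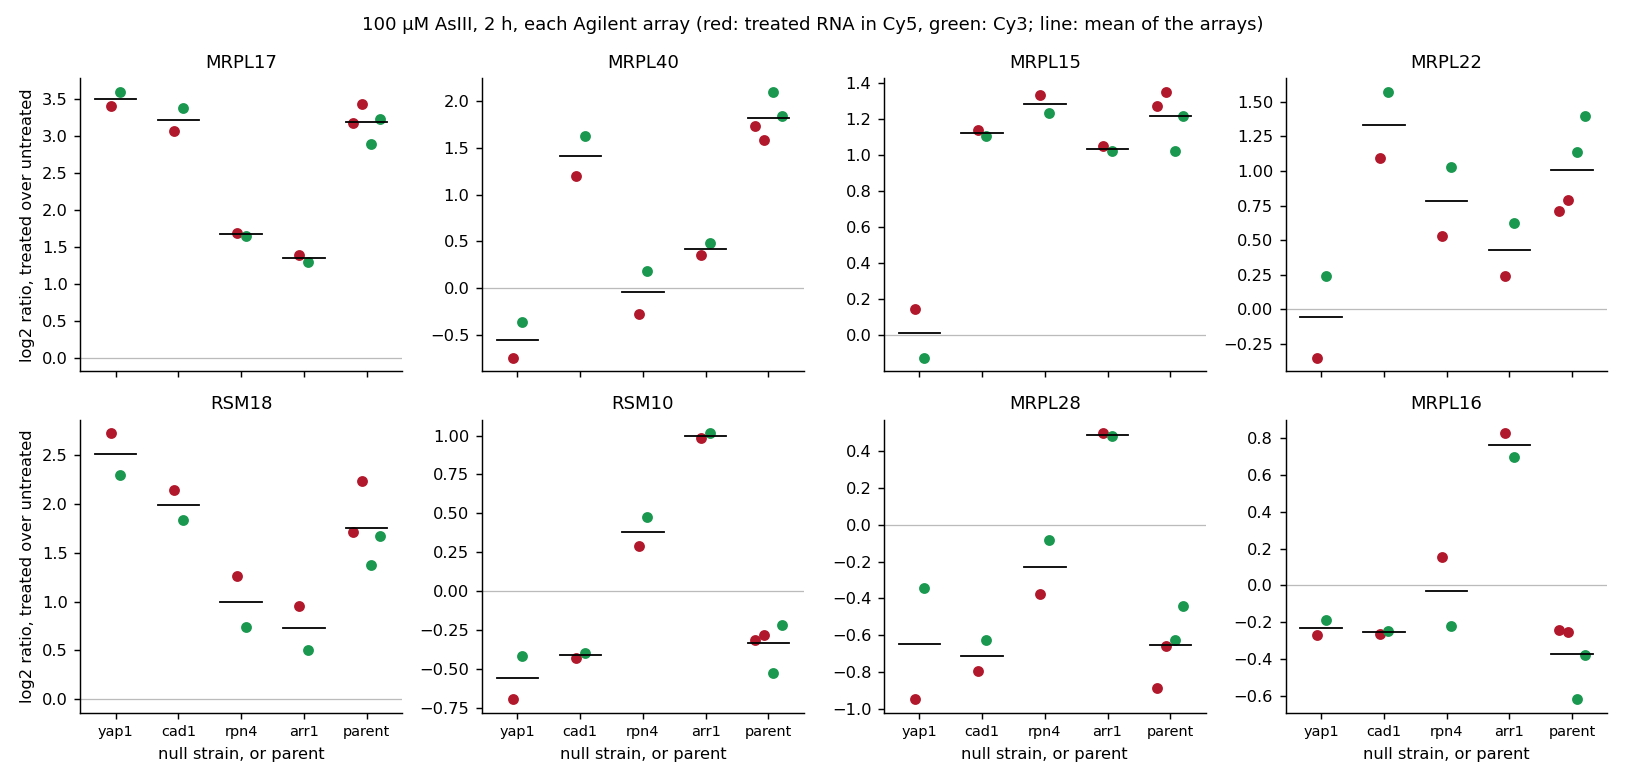
Log2 ratio, treated over untreated, of 8 members on each Agilent array after 100 µM AsIII for 2 h, in the 4 null strains and the parent, with the mean of the arrays as a line. Vertical axes differ between panels. MRPL40, MRPL15 and MRPL22 are near or below 0 in the yap1 null, MRPL17 is lower in the rpn4 and arr1 nulls, and RSM10, MRPL28 and MRPL16 lie above 0 on both arr1 null arrays.

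Without AsIII few members passed between a null strain and the parent. In the untreated yap1 null over the parent 1 of 54 passed (1.85%), against 3.88% of all genes in either direction, and the median was -0.03. It was RSM7, with 0.60 on both arrays (adjusted p = 0.020, limma), which did not pass with each array as a replicate. In the untreated cad1 null 0 of 54 passed in limma, against 2.68% of all genes, with 2 members at an unadjusted p under 0.05. Its extremes, which did not pass, were RSM7 (0.44), MRPL28 (0.17), RSM22 (-0.43) and MRPS17 (-0.23). In both strains dye-exchanged arrays ran against each other over all genes, as given above, so a ratio there can rest on 1 dye orientation.

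The untreated rpn4 null had members slightly above the parent, with a median of 0.21, against -0.01 over all genes, and 49 of 54 above 0. Of the 54, 5 rose (9.26%), against 10.9% of all genes, and 1 fell (1.85%), against 11.0% of all genes. MRPS9 (0.60 and 0.70), RSM7 (0.42 and 0.88) and RSM19 (0.37 and 0.60) were the highest that passed. RSM22, a gene of a small subunit protein related to methyltransferases, read -0.69 and -1.26 and fell by 0.97 (adjusted p = 3.1e-07, limma). In the untreated arr1 null 8 rose (14.8%), against 11.8% of all genes, and 0 fell, against 11.5% of all genes, with a median of 0.14. MRPL8, the counterpart of bacterial L17, read 2.01 and 0.30, MRPL39 1.02 and 0.26, and RSM27 0.56 and 0.70. The 2 arrays differed widely for MRPL8 and MRPL39, and with Cy3 arrays alone 1 member passed. Counting each array as a replicate called 4 of the 8. Among all genes Cy3 arrays alone called 350 higher and 298 lower, and each array as a replicate 455 and 386.

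Set beside other gene groups, the members' rise in the arr1 null did not extend to cytosolic ribosomes. Of 136 cytosolic ribosomal protein genes, 2 rose and 108 fell in the treated arr1 null, with a median of -0.60, against 109 risen and 5 fallen in the treated parent, with a median of 0.50. In the untreated arr1 null over the parent 133 of 136 rose, with a median of 1.10, while the members' median there was 0.14. The 21 mitoribosomal protein genes outside the naming rule had a median of 0.44 in the arr1 null, with 14 risen and 0 fallen, close to the members' 0.45, and 0.10 in the parent. MRP2 (1.23 in the arr1 null, against 3.50 in the parent) and MRP17 (1.04, against 2.09) were lower in the arr1 null, as MRPL17 was.

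The respiratory chain and ATP synthase genes parted from the members by strain. In the arr1 null 5 of 33 rose and 8 fell, with a median of -0.03, in the rpn4 null 4 rose and 9 fell (-0.21), in the yap1 null 2 rose and 20 fell (-0.54) and in the cad1 null 2 rose and 26 fell (-0.91), against 3 risen and 27 fallen in the parent (-0.85). HAP4 read -0.75 and -0.68 in the arr1 null and -0.92 and -1.36 in the rpn4 null, against -2.47, -2.84, -2.36 and -2.66 in the parent. In the untreated arr1 null over the parent HAP4 read -1.76 and -2.20. The members had no such order, with medians between 0.13 and 0.19 in the yap1, cad1 and rpn4 nulls and the parent, and 0.45 in the arr1 null. PUF3 read 1.34 and -0.46 in the arr1 null, on which the 2 dyes disagreed. Of the 12 translation factors 1 rose and 0 fell in the arr1 null (median 0.10), against 1 risen and 7 fallen in the parent (median -0.29).

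**Figure D5:**
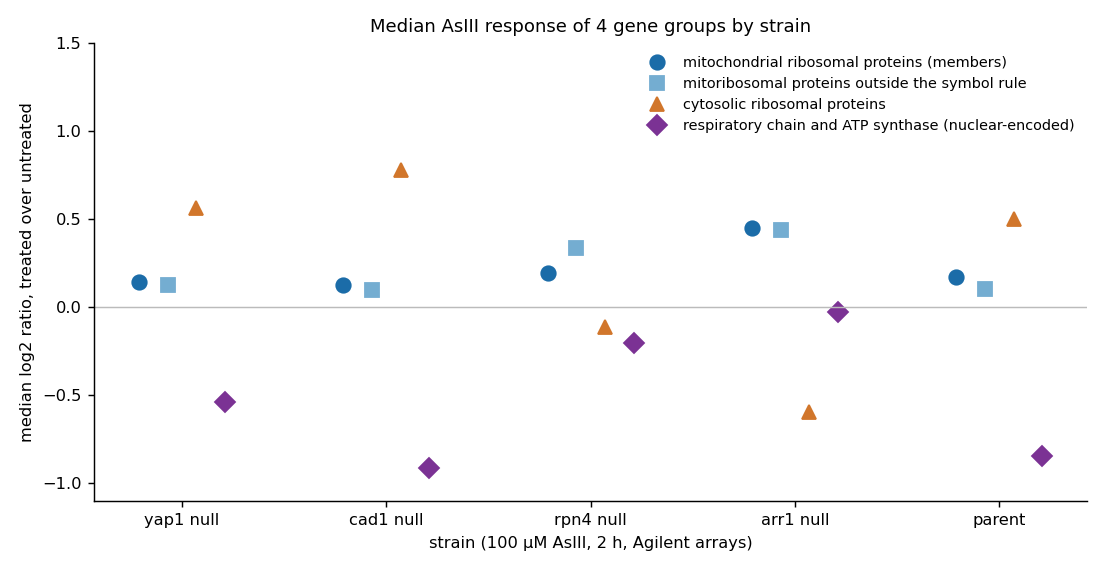
Median log2 ratio, treated over untreated, of the 54 members, 21 further mitoribosomal protein genes, 136 cytosolic ribosomal protein genes and 33 nuclear respiratory chain and ATP synthase genes, by strain (100 µM AsIII, 2 h, Agilent arrays). The members' median is highest in the arr1 null at 0.45, where the cytosolic ribosomal proteins have -0.60.

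The members differed among themselves in how they followed the group. Over the 9 Agilent conditions, which share parent RNA and dyes, each member was set against the mean of the others. The median correlation was 0.48, 7 of 54 exceeded 0.8 and 7 were below 0. MRPL9 (0.93), RSM19 (0.93) and MRPS8 (0.93) followed the others most closely, and RSM7 (-0.58), MRPS12 (-0.36) and RSM25 (-0.34) ran against them. By the mean over the 9 conditions MRPL17 was highest at 1.53 and MRPL20 lowest at -0.28. Over the 4 cDNA conditions the median correlation was 0.71, MRPL19 had the highest mean (0.50) and MRPS12 the lowest (-0.40). Here RSM22 (-0.85), RSM18 (-0.81) and MRPL17 (-0.75) ran against the others. Among genes outside the rule those most like the members' mean on the Agilent arrays were VPS21 (0.97), MUP1 (0.93), ROQ1 (0.93), PRM7 (0.93) and EAF3 (0.92), and on the cDNA arrays NSR1, RMR1, MDM31, RKI1 and ISY1, all at 0.996 or above. With 4 conditions such values are common, and 214 of 5487 genes exceeded 0.9 on the cDNA arrays, against 12 of 5544 on the Agilent arrays.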

How the data were processed

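Samples were grouped by their labels. The cDNA values were used as the log2 ratios that the authors deposited, already turned to treated over untreated, and their normalization is not given in the sources used here. The Agilent values were log10 ratios when deposited, made with Feature Extraction and then Rosetta Resolver, turned the same way and limited to a 100-fold change. They were converted to log2, and no member value lay at a limit. Probes were named through the platform annotation (1143 of 6720 cDNA probes and 1605 of 10807 Agilent probes had no gene) and averaged per gene.

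Arrays of 1 culture pair or of 1 dye exchange were averaged, giving 5 replicates in 4 cDNA conditions and 10 in 9 Agilent conditions. The parent arrays were paired by number (1 with 2, 3 with 4), which the sources used here do not state. Each platform was fitted with limma 3.58.1 in R 4.3.3 (lmFit, eBayes, two-sided, Benjamini-Hochberg over all genes, threshold 0.05), leaving 1 residual degree of freedom. Strains, doses and times were compared as contrasts. Tables and figures were made in Python 3.11.15 (pandas 2.3.3, numpy 2.4.6; plots in matplotlib 3.10.9). The number of arrays limits the precision.

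Agilent arrays of the same number share a dye orientation, and their deviations from the group means correlated at 0.62 to 0.96, so the number was also fitted as a replicate block. Also tried were single arrays as replicates, median centring, 1 dye alone, the other pairing of parent arrays, the median of probes, a stricter call rule, leaving out each replicate and, chosen after the values were seen, leaving out array 1 at 100 µM for 30 min. Named members are the 3 highest and 3 lowest that passed with 1 sign on every array (for differences, with arrays that do not overlap), or the 2 highest and 2 lowest where none passed. Members and gene lists were chosen with earlier results of these data known. Neighbours come from the gene order in the RefSeq table of yeast.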

Additional observations from a re-analysis of the deposited data

Results flagged for a closer look

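RSM26 read -2.20 on array 3 of the 4 arrays at 100 µM AsIII for 30 min, far from the other 3. MRPL32 read -0.77 on array 4 at 100 µM for 2 h, apart from the other 3. These were 2 of 27 sets of array values examined, and chance sets apart about 1 in 20.

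The responses of some members differed between a null strain and the parent by the test of the difference itself. In the yap1 null these were RSM18 (0.76), MRPL7 (0.70), MRPS9 (0.68), MRPL40 (-2.37), MRPL15 (-1.20) and MRPL22 (-1.06). In the rpn4 null they were MRPS17 (0.74), RSM10 (0.72), MRPL20 (0.63), MRPL40 (-1.86), MRPL17 (-1.51) and RSM27 (-1.01). In the arr1 null they were RSM10 (1.33), MRPL28 (1.14), MRPL16 (1.14), MRPL17 (-1.83), MRPL40 (-1.40) and RSM18 (-1.02). All 3 sets of differences share the 4 parent arrays.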

How the results depend on the processing

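No named member that had passed changed its sign. These members were picked for 1 sign on every array or, for differences, for arrays that do not overlap. Fits on the same arrays could therefore hardly change it, so this was no test. The members' median took the other sign in 7 results, all with reported medians between -0.16 and 0.05. With Cy3 alone it was -0.06 at 100 µM for 30 min, 0.01 in the untreated yap1 and cad1 nulls and -0.01 for the rpn4 null minus the parent, which was also -0.01 without parent replicate 2. With Cy5 alone it was 0.11 at 2 h, 0.20 at 4 h and 0.04 for 2 h minus 30 min. Median centring moved no count of members called by over 1.5 times. The median of probes was tried for the members' medians only, which it left the same. Leaving out array 1 at 100 µM for 30 min left the counts at 0 in the 3 results that use it. Counting each array as a replicate, without and with a replicate block for the array number, called 34 and 33 members at 1 mM (8 in the fit reported), 8 and 7 at 100 µM for 2 h, 4 and 5 at 4 h, and 5 and 7, 9 and 12, and 21 and 27 in the differences of 2 h minus 30 min, 4 h minus 2 h and 1 mM minus 100 µM, where 0 had passed. Without the block it called 1 at 30 min, 0 in the untreated yap1 null, 4 in the untreated arr1 null and 9 for the rpn4 null minus the parent. Over all genes the fit without the block called 1442 higher and 1537 lower at 1 mM. At 100 µM it called 42 and 23 at 30 min, 1179 and 1170 at 2 h, and 701 and 537 at 4 h. It called 50 and 25 in the untreated yap1 null, 455 and 386 in the untreated arr1 null, and 862 and 635 for the rpn4 difference. With the block, 1358 of all genes were higher and 1439 lower at 1 mM. At 100 µM these were 1165 and 1168 at 2 h, and 703 and 544 at 4 h. For 2 h minus 30 min they were 1000 and 839, for 4 h minus 2 h 1135 and 1249, and for 1 mM minus 100 µM 958 and 904. The block gave 10 for the yap1 null minus the parent and 3 for the cad1 null. Among all genes it gave 712 higher and 530 lower for the yap1 null, and 183 and 199 for the cad1 null. On the cDNA arrays the array numbers did not pair the samples (correlations of -0.14 to 0.71, with 10 of 20 arrays closest to their own number).

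With Cy5 alone 4 members passed at 1 mM, 10 in the untreated yap1 null and 3 for the yap1 null minus the parent, and with Cy3 alone 4, 21 in the arr1 null, 1 in the untreated arr1 null, 2 for the yap1 null minus the parent and 4 for the rpn4 null minus the parent. Over all genes, higher and lower, Cy5 alone called 506 and 248, 946 and 1107, and 91 and 260 in the same order. Cy3 alone called 558 and 469, 987 and 1064, 350 and 298, 45 and 210, and 546 and 459. The members' median at 1 mM was -0.24 in Cy5 and -0.54 in Cy3, in the yap1 null 0.23 in Cy3, in the arr1 null 0.49 in Cy5 and 0.48 in Cy3, and in the untreated rpn4 null 0.23 in Cy3. Pairing parent arrays 1 with 4 and 2 with 3 gave 11 in the untreated rpn4 null, 13 in the untreated arr1 null and 11 for the yap1 null minus the parent. Among all genes this pairing gave 885 higher and 995 lower, 958 and 1041, and 619 and 539. Under the stricter rule (unadjusted p under 0.001 and at least 2-fold) 0 passed at 1 mM, 9 in the parent, 5, 10, 3 and 4 in the yap1, cad1, rpn4 and arr1 nulls, 0, 0 and 1 in the untreated yap1, rpn4 and arr1 nulls, and 3, 3 and 9 for the yap1, rpn4 and arr1 nulls minus the parent. Counts over all genes under the stricter rule are not given here, so these counts do not set the members apart. Leaving out 1 replicate moved the median at 1 mM between -0.41 and -0.35 and that of the parent between 0.065 and 0.19. The cause of these shifts was not tested.

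Each fit left 1 residual degree of freedom, to which limma added degrees of freedom for a spread shared across genes. On the cDNA arrays it added 4.28. On the Agilent arrays the added number was infinite, so the shared spread was taken as known. The very small Agilent p-values therefore carry no allowance for error in that spread. With parent arrays paired 1 with 4 and 2 with 3 the added number was 5.21. On the cDNA arrays only the 1 mM condition has 2 culture pairs, and on the Agilent arrays only the parent has 2 array pairs, so the other conditions are assumed to vary like these.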
